A study of Drosophila melanogaster with 2 samples.

Results

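The translation initiation factor genes of Drosophila melanogaster are described here as places where peaks of a chromatin immunoprecipitation sequencing (ChIP-seq) experiment fell. The members are the 44 protein-coding genes whose symbol starts with eIF in Ensembl release 115, of 13945 protein-coding genes on the main chromosome arms, and the rule that picks them uses the name and no measured value. All samples were whole embryos aged 0 to 18 hours from the amos-GFP strain, whose transgene makes the Amos protein fused to eGFP, and DNA was pulled down with an antibody against GFP, although the antibody label itself reads amos. The labels name 2 biological replicates of this 1 group and do not say which regulatory sequence drives the fusion. No control library was analysed here, so every comparison below is between genes, paralogs, lists or replicates and none carries a test.

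Eukaryotic initiation factors bring the small ribosomal subunit, the initiator tRNA and the mRNA together. eIF2 carries the initiator tRNA in a GTP-bound form, and eIF2B reloads eIF2 with GTP. eIF3 is the large scaffold on the small subunit. The eIF4 factors recognise the mRNA cap (eIF4E), bridge it to the ribosome (eIF4G) and unwind the mRNA (eIF4A, helped by eIF4B and eIF4H). eIF1, eIF1A and eIF5 act in start codon choice, eIF5B in joining of the large subunit, and eIF6 keeps the subunits apart. Most of these genes are transcribed in every cell, and several have paralogs used mainly in the male germ line. Amos, the protein that was pulled down, is a basic helix-loop-helix (bHLH) factor of olfactory neuron formation that binds E-boxes.

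Sequences at 7 of the 8 strongest peaks are shown first, in order of signal, so that stretches with and without 3 short motifs can be compared. The one not printed is eIF3c, between eIF4E6 and eIF4G2 in signal, whose window holds none of the 3 motifs. Each sequence is the stretch around the peak summit outside annotated exons, at most 50 bp to each side, read 5′ to 3′ on the strand of the eIF gene (dm6, all on the minus strand). Capitals mark the 3 motifs on either strand. They are CGATAG, recognised by the insulator factor BEAF-32, TATCGATA, recognised by DREF, a factor of housekeeping promoters, and GGTCACACT, to which the promoter factor M1BP binds. TATCGATAG holds CGATAG and TATCGATA together. The stretches lie at chr3R:4714183-4714260 for eIF3f1, chr3R:15263459-15263551 for eIF2gamma, chr3R:4433896-4433964 for eIF3a, chr3R:29027183-29027235 for eIF4E6, chr3R:23819250-23819350 for eIF4G2, chrX:16446994-16447073 for eIF2alpha and chr3L:9402461-9402539 for eIF4E1.
eIF3f1: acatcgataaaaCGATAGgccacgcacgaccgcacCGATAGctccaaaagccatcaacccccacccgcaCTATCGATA
eIF2gamma: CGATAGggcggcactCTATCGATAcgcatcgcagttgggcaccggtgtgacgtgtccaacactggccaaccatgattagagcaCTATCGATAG
eIF3a: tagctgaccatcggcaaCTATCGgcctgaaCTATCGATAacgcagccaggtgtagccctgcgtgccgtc
eIF4E6: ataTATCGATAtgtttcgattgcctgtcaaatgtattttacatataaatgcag
eIF4G2: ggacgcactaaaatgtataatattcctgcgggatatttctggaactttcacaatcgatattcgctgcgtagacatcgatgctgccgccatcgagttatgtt
eIF2alpha: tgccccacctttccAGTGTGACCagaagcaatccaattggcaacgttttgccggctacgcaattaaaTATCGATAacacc
eIF4E1: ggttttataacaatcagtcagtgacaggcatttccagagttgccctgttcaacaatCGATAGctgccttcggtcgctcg

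In these stretches, eIF3f1 and eIF2gamma hold several copies of CGATAG and at least 1 TATCGATA. The eIF4G2 stretch has no capitals, since none of the 3 motifs is in it. The eIF2alpha stretch pairs TATCGATA with GGTCACACT, read on the other strand, and the eIF4E1 stretch holds a single CGATAG. At eIF4E6 a CGATAG also lies in the motif window, in the exonic bases that are not printed.

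A gene counted as having a promoter peak when a summit lay within 500 bp of any of its transcription start sites (TSSs). Of the 44 eIF genes, 27 (61.4%) had one in the list called on pooled reads, and 37.3% of all protein-coding genes did. In the stricter conservative list from pooled reads, 23 eIF genes had a peak, against 23.8% of all genes. The replicate 1 list held a promoter peak for 27 members (61.4%) and for 39.6% of all genes. The replicate 2 list held one for 22 members (50%) and for 20.6% of all genes. The mean over the replicates was 55.7% ± 8.04 (SD, n = 2) for eIF genes and 30.1% ± 13.4 for all protein-coding genes. Both replicate lists held a promoter peak for 21 members, against 19.4% of all genes, and neither held one for 16 members, against 59.2%. In each of these lists the share of eIF genes was above the share of all genes, with no test of that difference.

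**Figure D1:**
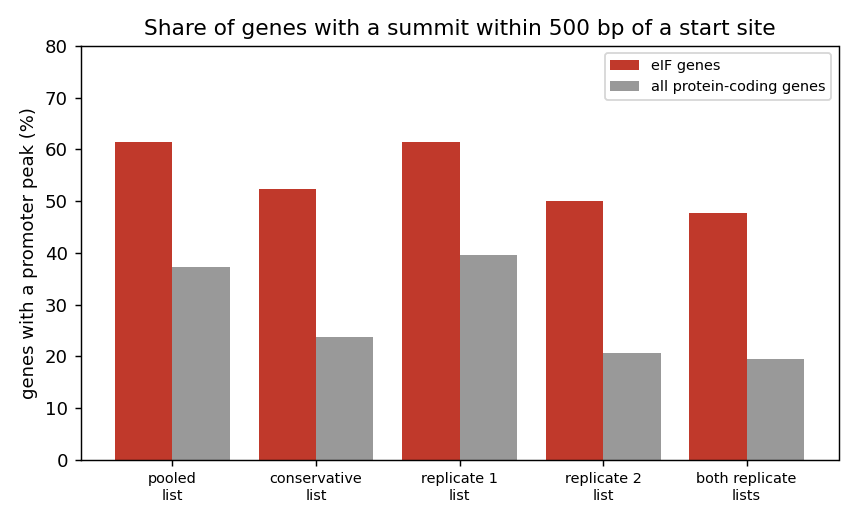
Share of genes with a summit within 500 bp of a TSS (y axis, percent, from 0) in each peak list (x axis), for the 44 eIF genes and for all 13945 protein-coding genes. The eIF bars run from 47.7% to 61.4% and the bars of all genes from 19.4% to 39.6%.

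The lists differ in size: 5860 peaks from pooled reads, 3116 in the conservative list, 6214 in replicate 1 and 2973 in replicate 2. No list gives read counts, so the depth of the libraries is unknown. The signal of a peak is the value of the authors' peak caller, and its scale is set within each list. At amos itself, the replicate 2 list alone held a summit within 500 bp of the TSS.

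Signals at eIF promoters were mostly in the upper part of the pooled list. The 27 strongest promoter peaks, 1 per gene, ran from 66.2 to 1890 with a median of 338, and the same median over the 5208 protein-coding genes with a promoter peak was 178. Of the 44 members, 6 (13.6%) had a peak in the top 10% of the pooled list by signal, against 5.80% of all genes. The median signal in the replicate 1 list was 231 for 27 eIF genes and 115 for all genes with a peak. In the replicate 2 list the medians were 122 for 22 eIF genes and 117 for all genes with a peak. The eIF median was thus well above that of all genes in replicate 1 and close to it in replicate 2.

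**Figure D2:**
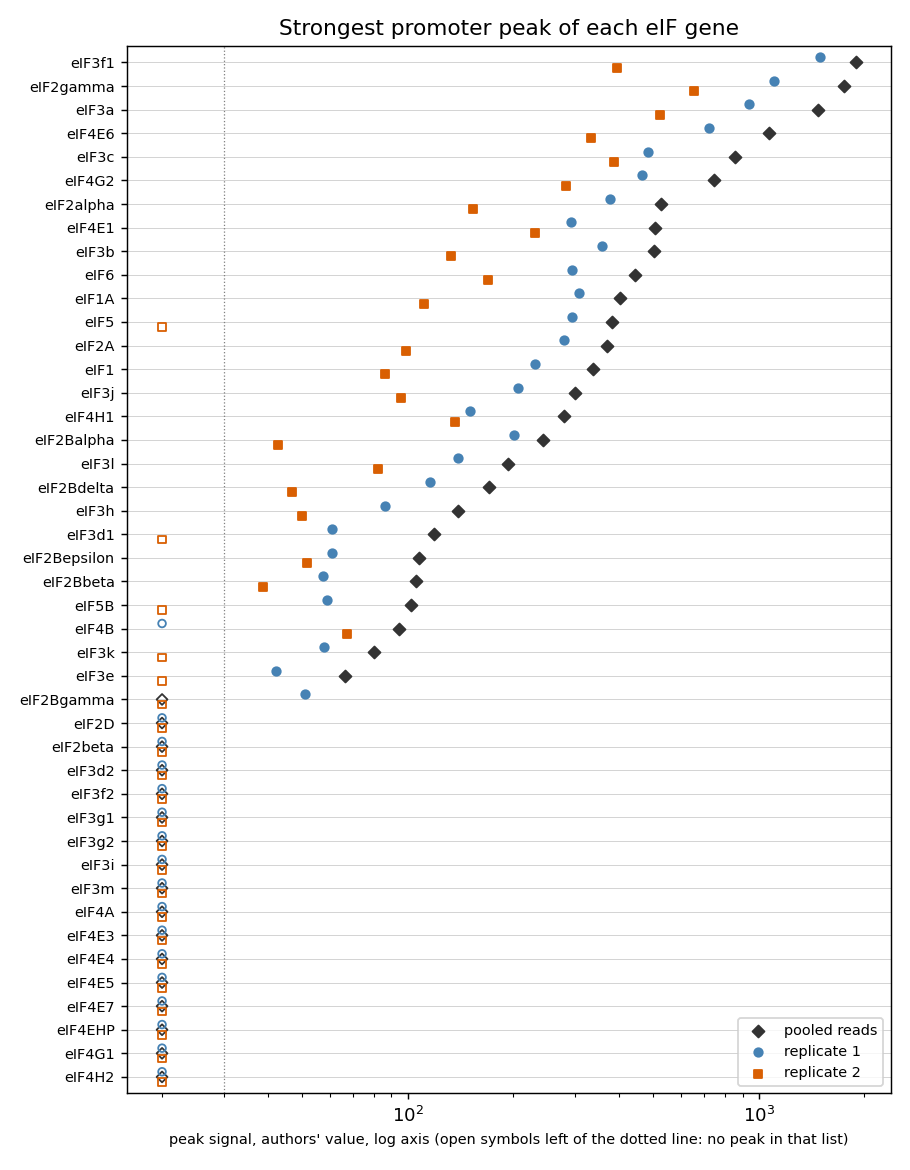
Signal of the strongest promoter peak (x axis, authors' value, log axis) of each of the 44 eIF genes (y axis), in the pooled list (diamonds), replicate 1 (circles) and replicate 2 (squares). Open symbols left of the dotted line are lists without a promoter peak. The 27 genes with a pooled peak run from eIF3f1 at 1890 to eIF3e at 66.2, and eIF2Bgamma has a peak in replicate 1 alone.

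Of the 3 eIF2 subunits, 2 had a promoter peak in the pooled list (66.7%, against 37.3% of all genes). Of the 2, only eIF2gamma was in the top 10% of the pooled list by signal. eIF2gamma, the subunit that binds GTP and the initiator tRNA, had a signal of 1749 in the pooled list (rank 51 of 5860), 1103 in replicate 1 (rank 81 of 6214) and 656 in replicate 2 (rank 30 of 2973). It was thus near the top of every list. Its TSS is also that of Su(var)3-9, a histone methyltransferase gene transcribed from the same promoter. The TSS of Set lies 50 bp from the summit on the other side, so the peak cannot be assigned to 1 of these 3 genes. eIF2alpha, the subunit phosphorylated by stress kinases, had 528 (rank 743) in the pooled list, 377 (rank 688) in replicate 1 and 153 (rank 995) in replicate 2. No other protein-coding TSS lay within 500 bp of its summit. eIF2beta had no promoter peak in any thresholded list. The ranked lists, which also hold the regions below the threshold, put its strongest region at a signal of 14.2 in pooled reads and 22.4 in replicate 1, with none in replicate 2.

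Of the 5 eIF2B subunits, 4 had a peak in the pooled list (all genes 37.3%), and all 5 had one in replicate 1 (all genes 39.6%). Their signals in the pooled list ran from 106 (eIF2Bbeta) to 243 (eIF2Balpha), all below the eIF median of 338. The median over all genes with a promoter peak was 178. eIF2Balpha had 201 in replicate 1 and 42.7 in replicate 2, which is rank 1361 of 6214 against rank 2544 of 2973. eIF2Bdelta had 170 in the pooled list, 116 in replicate 1 and 47.0 in replicate 2. eIF2Bepsilon, the catalytic subunit, had 108, 61.1 and 51.8. These 3 summits were nearer to another gene's TSS than to that of the eIF2B gene (Vps13B, roh and Ocrl, at 16, 6 and 15 bp), each on the opposite strand and facing away. eIF2Bbeta had 106 in the pooled list, 57.5 in replicate 1 and 38.8 in replicate 2, and stood alone at its summit. eIF2Bgamma had a peak of 51.1 (rank 4465) in replicate 1 and none in the other thresholded lists, and its ranked region in pooled reads had 44.4.

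eIF3 gave both the strongest member and some of the weakest. Of 16 genes for its subunits, 10 had a peak in the pooled list (62.5%, against 37.3% of all genes), 10 in replicate 1 (62.5% against 39.6%) and 7 in replicate 2 (43.8% against 20.6%). eIF3f1 had the highest signal of all members, at 1890 in the pooled list (rank 41), 1496 in replicate 1 (rank 25) and 395 in replicate 2 (rank 194). The replicates thus placed it differently, although it was the strongest member in replicate 1 and the third in replicate 2. eIF3a, the large scaffold subunit, had 1470 (rank 93), 940 (rank 113) and 522 (rank 68) in the same order. Its summit lay 21 bp from the TSS of CG1074, on the opposite strand, and 49 bp upstream of that of eIF3a. eIF3c, which pairs with eIF3a in the core, had 857 (rank 322), 484 (rank 465) and 387 (rank 201), and shared its summit with no other gene.

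The peak of eIF3b, another core subunit, was further away. It had 503 in the pooled list (rank 808), 357 in replicate 1 and 133 in replicate 2, with the summit 318 bp upstream of the eIF3b TSS and 29 bp from the divergent TSS of Patronin, a microtubule gene. A weaker summit of 61.3 lay 140 bp downstream of the eIF3b TSS in the pooled list. The rest of the eIF3 genes with a pooled peak were eIF3j (299), eIF3l (194), eIF3h (139), eIF3d1 (119), eIF3k (80.1) and eIF3e (66.2). The last 3 had no peak in replicate 2 or in the conservative list, and the q value of eIF3e in the pooled list was above 0.05.

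The factors of start codon choice and subunit joining all had a peak in the pooled list, 5 of 5 against 37.3% of all genes, with 3 of them in both replicates against 19.4%. eIF6, which keeps the large subunit from joining early, had 443 in the pooled list (rank 928), 293 in replicate 1 and 170 in replicate 2. eIF1A had 404 (rank 1041), 307 and 112, and its summit relative to the TSS lay at -58 bp in pooled reads and at -152 bp in replicate 2. eIF1 had 338, 231 and 86.5, and the strongest of its 2 replicate 2 summits lay 229 bp upstream of its TSS, on the side of the divergent gene RpL28. eIF5, the GTPase-activating protein of eIF2, had 382 (rank 1106) in the pooled list and 294 in replicate 1, with no peak in replicate 2 or in the conservative list. Its summit was 410 bp upstream of the eIF5 TSS and 84 bp from that of exd, a homeodomain gene, and CG46312 shares the TSS of eIF5. Replicate 1 also held a weak summit (39.4, rank 5376) at 56 bp downstream of the eIF5 TSS. eIF5B, the GTPase of subunit joining, had 102 in the pooled list, 59.0 in replicate 1 and none in replicate 2.

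eIF2A and eIF2D are not subunits of eIF2 and act outside the main pathway of initiator tRNA delivery. eIF2A had 370 in the pooled list (rank 1137), 279 in replicate 1 and 99.3 in replicate 2, with its summit 52 bp upstream of a TSS of its own. eIF2D had no promoter peak in any thresholded list, and its strongest ranked region had a signal of 51.6 in pooled reads, 31.3 in replicate 1 and 20.6 in replicate 2.

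Of the 13 eIF4 genes, 5 had a peak in the pooled list (38.5%), which is about the 37.3% of all protein-coding genes. Apart from eIF4B, they belong to the paralog groups described further on. eIF4B, which stimulates the helicase, had 94.5 in the pooled list, none in replicate 1 and 67.3 in replicate 2. It was the only member with a peak in replicate 2 and not in replicate 1. eIF4A, the helicase itself, was absent from all 4 thresholded lists but not from the ranked lists. Absence from a thresholded list may thus not mean a weak region. The deposited text names a source file for the thresholded lists that it does not name for the ranked lists, and the part of that file in the absence was not tested. There its region had a signal of 743 in pooled reads, 437 in replicate 1 and 312 in replicate 2, and the −log10 of its global irreproducible discovery rate (IDR) was 5 in all 3, the highest value the lists give. With its pooled signal eIF4A would have come 431st of the 5860 peaks, close to eIF4G2.

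**Figure D3:**
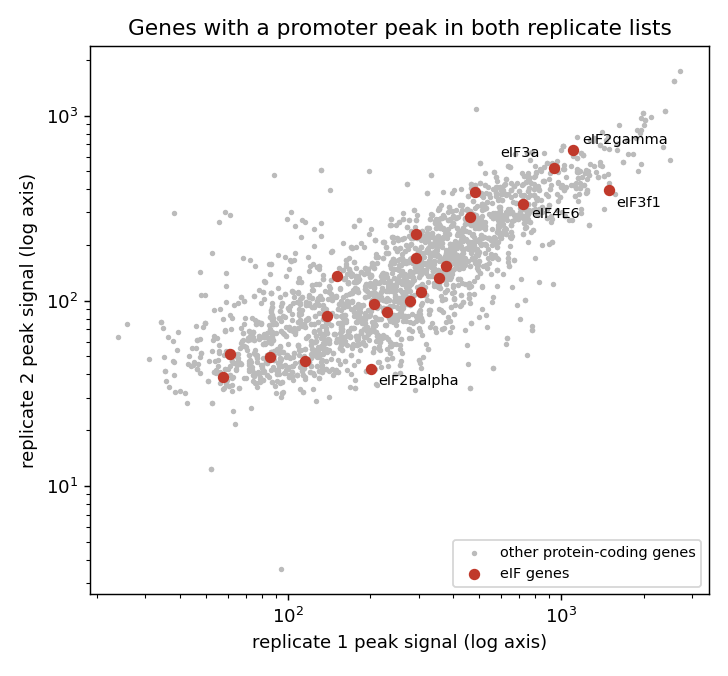
Signal in replicate 1 (x axis, log axis) against replicate 2 (y axis, log axis) for the protein-coding genes with a promoter peak in both lists, with the 21 eIF genes in red. eIF2gamma, eIF3a, eIF3f1 and eIF4E6 are at the upper right, and eIF2Balpha lies low in replicate 2 for its replicate 1 signal.

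Across the 21 eIF genes with a promoter peak in both replicate lists, Spearman's rank correlation of signal was 0.917, and over all 2701 such genes it was 0.811. The points share their libraries, so this is a description. The replicate summits of these 21 genes were a median of 15 bp apart, and 18 of them were within 50 bp. The largest distance, 174 bp, was at eIF1 and depends on which of 2 replicate 2 summits is taken. The second (75.5, against 86.5 for the strongest) lay at -28 bp from the TSS, near the replicate 1 summit at -55 bp.

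The summits sat just upstream of the TSS. Of the 27 pooled summits, 22 were upstream (81.5%, against 79.9% of all genes with a promoter peak) and 25 within 150 bp (92.6%, against 77.0%). The median distance was 44 bp, and 54 bp over all genes. By annotation, 16 summits were intergenic, 9 in 5' UTRs and 2 in introns of overlapping genes. Another gene's TSS lay within 500 bp of the summit for 14 of the 27, of all genes 52.0%. In 13 of these 14 a divergent gene was among the neighbours. The TSS of the eIF gene was the nearest, or tied for nearest, at 19 of 27 summits, against 75.1% of all genes. Where it was not the nearest, the eIF gene cannot be told apart from its neighbour as the gene to which the peak belongs.

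**Figure D4:**
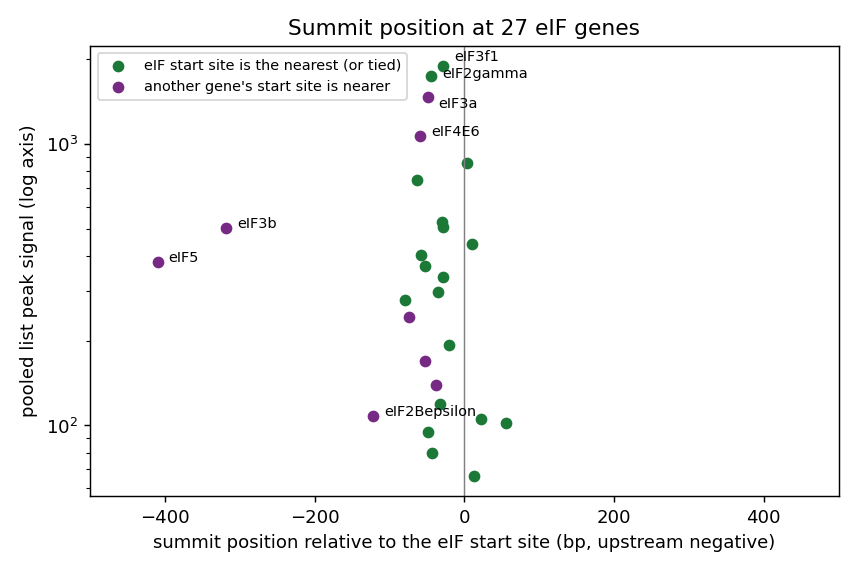
Position of the pooled summit relative to the TSS of the eIF gene (x axis, bp, upstream negative) and its signal (y axis, log axis) for the 27 eIF genes with a promoter peak, in purple where another gene's TSS is nearer. Summits of eIF3b and eIF5 lie 318 and 410 bp upstream, nearer to Patronin and exd, and 25 of the 27 lie within 150 bp.

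Motifs were counted in windows of 50 bp to each side of the pooled summits, on both strands. CGATAG was in 12 of the 27 eIF windows (44.4%) and in 31.4% of all promoter peaks of the list. TATCGATA was in 10 (37.0%) against 17.0%, and GGTCACACT in 3 (11.1%) against 4.64%. In the replicate 2 list GGTCACACT was in 1 of 22 eIF windows (4.55%) against 4.91%, so its higher share was not seen there. CGATAG in that list was in 50% against 45.6%, a smaller gap than in pooled reads, and TATCGATA in 50% against 24.7%. In the replicate 1 list the shares were 40.7% against 29.0% for CGATAG, 37.0% against 15.6% for TATCGATA and 11.1% against 3.93% for GGTCACACT. E-boxes (CANNTG) were in 10 of the 27 pooled windows (37.0%) against 39.3%. They were in 12 of 27 (44.4%) against 38.8% in replicate 1, and in 9 of 22 (40.9%) against 36.5% in replicate 2. Of the 27 pooled windows, 15 held at least 1 of the first 3 motifs, 8 held both CGATAG and TATCGATA, and 12 held none of the 3. For these combined counts the shares over all promoter peaks were not computed, so they have no background beside them. The E-box, the motif of the bHLH class to which Amos belongs, was thus about as frequent at eIF summits as at all promoter peaks. Its share was slightly below that of all promoter peaks in the pooled list and slightly above it in each replicate list.

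Median signals were higher with the motif for CGATAG, TATCGATA and the E-box, and lower for GGTCACACT, which only 3 peaks held. The 12 eIF peaks with CGATAG had a median signal of 407, from 106 to 1890, and the 15 without had a median of 170, from 66.2 to 857. For TATCGATA the medians were 485 with and 280 without. The 3 peaks with GGTCACACT were lower, with a median of 194 against 354 without it. Peaks with an E-box had a median of 420 against 298.95 without. In all 4 cases the ranges with and without the motif overlapped. The 4 strongest members, eIF3f1, eIF2gamma, eIF3a and eIF4E6, all had both CGATAG and TATCGATA in their windows. Of the 12 strongest, however, 7 held at least 1 of CGATAG, TATCGATA and GGTCACACT, and of the 15 others 8 did. These counts and the medians by motif were not computed over all promoter peaks, so whether they are particular to eIF genes is not known. The strongest windows with none of the 3 were those of eIF3c (857) and eIF4G2 (748).

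In promoter windows from 250 bp before to 50 bp after each TSS, CGATAG was in 15 of the 27 members with a pooled peak and in 3 of the 17 without one. Over all genes the shares were 43.0% with a peak and 9.99% without, and 22.3% in all. TATCGATA was in 12 of 27 and 1 of 17, against 23.4% and 2.28%, and 10.2% in all promoters. GGTCACACT was in 3 of 27 and 1 of 17, against 11.4% and 3.99%, and 6.78% in all. E-boxes were in 24 of 27 and 14 of 17, against 82.4% and 81.7%, and 82.0% in all. The 3 members without a pooled peak whose promoter held CGATAG were eIF4A, eIF4G1 and eIF4H2. In eIF4A it came with TATCGATA, and the summit of its region in the ranked list, 93 bp upstream of the nearest TSS, has this sequence (chr2L:5981621-5981721, plus strand, capitals as before).
eIF4A: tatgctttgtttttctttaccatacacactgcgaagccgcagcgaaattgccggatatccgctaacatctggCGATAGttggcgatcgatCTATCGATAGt

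Paralogs of the same factor were then set side by side. Of the 44 members, 17 fall into 6 groups whose symbols differ only in a last number or in HP. The grouping goes by symbol alone, so a paralog under another name would be missed. Of these 17, 6 had a promoter peak in the pooled list (35.3%, against 37.3% of all protein-coding genes), 6 in replicate 1 (35.3% against 39.6%) and 5 in replicate 2 (29.4% against 20.6%). The pooled and replicate 1 shares are thus near those of all genes. Of the 27 members in no such group, 21 had one in the pooled list (77.8%), 21 in replicate 1 (77.8%) and 17 in replicate 2 (63.0%). In 5 groups at least 1 gene lacked a peak while another had one, and in the eIF3g group no gene had one.

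The eIF4E group, the cap-binding proteins, has 7 genes, of which eIF4E1 and eIF4E6 had a peak in every list. eIF4E1, the main cap-binding protein of somatic cells, had 508 in the pooled list (rank 791), 293 in replicate 1 (rank 943) and 230 in replicate 2 (rank 589). Its summit lay 29 bp upstream of a TSS, with no other gene nearby. eIF4E6 had 1067 (rank 198), 722 (rank 212) and 333 (rank 275), so it was above eIF4E1 in each list. The eIF4E6 summit was 3 bp from the TSS of CG1951, on the opposite strand, and 59 bp upstream of the eIF4E6 TSS, and the printed stretch lies between the transcripts of these genes. Its protein of 173 residues is 51.5% identical to the 259 residues of eIF4E1 over aligned positions.

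The other 5 genes of the group had no thresholded promoter peak. eIF4E3, known for a role in spermatogenesis, had ranked regions of 7.39 in pooled reads, 12.1 in replicate 1 and 7.68 in replicate 2. eIF4E4, the closest to eIF4E1 in protein (63.1% identity), had 15.8, 8.66 and 11.1. eIF4E5 had a region of 2.57 in replicate 2 alone, and eIF4E7 had 5.54 in pooled reads and 3.40 in replicate 2. None of these 4 promoters held CGATAG, TATCGATA or GGTCACACT. eIF4EHP, which binds the cap without eIF4G and represses translation, had a ranked region of 75.9 in pooled reads and 61.6 in replicate 1, with none in replicate 2. Its −log10 global IDR was 3.04 and 2.02, and the thresholded lists did not hold it. Another gene, CG18428, was found at the same region.

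In the eIF4G group, the scaffold of the cap complex, the gene with a peak was eIF4G2 and not eIF4G1. eIF4G2, known for its role in male meiosis, had 748 in the pooled list (rank 426), 465 in replicate 1 (rank 501) and 282 in replicate 2 (rank 399). The summit lay 63 bp upstream of a TSS that CG33111 shares, in an intron of CG34355, so this peak too cannot be assigned to eIF4G2 alone. eIF4G1, the general scaffold, lies on the fourth chromosome and had no region within 500 bp of its TSS in any ranked list used. The nearest pooled summit was 25831 bp away. The proteins are 28.7% identical over aligned positions.

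**Figure D5:**
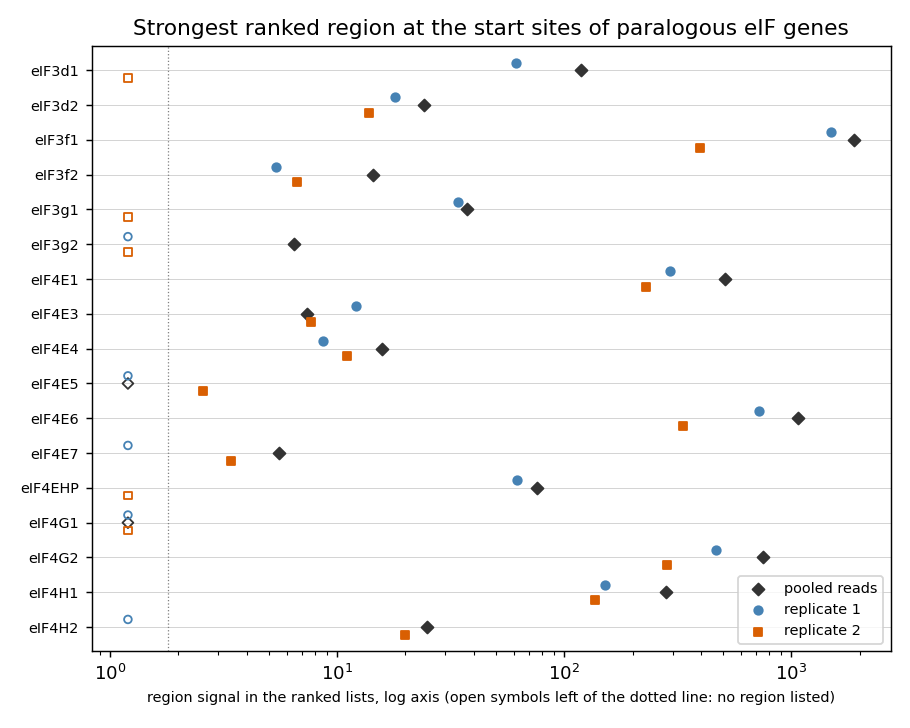
Signal of the strongest region within 500 bp of a TSS in the ranked lists (x axis, log axis), in pooled reads (diamonds), replicate 1 (circles) and replicate 2 (squares). The 17 genes (y axis) are the eIF genes in the paralog groups defined by symbol. Open symbols left of the dotted line are lists with no region. eIF3f1, eIF4E6, eIF4G2, eIF4E1 and eIF4H1 are above 100 in all 3, and eIF4G1 has no region.

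Among the eIF3 paralogs, the gene numbered 1 had the higher signal in pooled reads in each pair. eIF3f1 had 1890 and eIF3f2 a ranked region of 14.4 in pooled reads, with 5.39 in replicate 1 and 6.69 in replicate 2. Their proteins are 40.6% identical. eIF3d1 had 119 in the pooled list and 61.0 in replicate 1, without a thresholded peak in replicate 2. eIF3d2 had ranked regions of 24.0, 17.9 and 13.8 in pooled reads, replicate 1 and replicate 2. eIF3g1 had 37.3 in pooled reads and 33.9 in replicate 1, below the threshold in both, and eIF3g2 had 6.49 in pooled reads alone. In the pairs eIF3d and eIF3g the proteins are 67.5% and 72.3% identical.

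In the eIF4H pair, eIF4H1 had 280 in the pooled list (rank 1532), 151 in replicate 1 and 136 in replicate 2. Its summit lay 80 bp upstream of a TSS and 283 bp from that of the divergent gene CG34015. eIF4H2 had ranked regions of 24.8 in pooled reads and 19.8 in replicate 2, although its promoter window holds CGATAG. The remaining members without a thresholded peak in the pooled list were eIF3i and eIF3m, both subunits of eIF3. eIF3i had ranked regions of 12.7 in pooled reads and 14.98 in replicate 1, with none in replicate 2. eIF3m had 29.5 in pooled reads, 21.6 in replicate 1 and 11.4 in replicate 2, at regions shared with CG8323.

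Other genes of translation, taken from lists of names, were read in the same way. Of 21 regulators of initiation, 16 had a promoter peak in the pooled list (76.2%, against 37.3% of all genes), 17 in replicate 1 (81.0% against 39.6%) and 12 in replicate 2 (57.1% against 20.6%). Their median pooled signal was 484. The strongest were larp (1339), bel (1009), a helicase gene, Paip2 (914), whose product inhibits the poly(A)-binding protein, and MCTS1 (808, nearest to the TSS of rux). larp had no peak in replicate 2. The regulators without a pooled peak were 4E-T, Lk6, PEK, Pdcd4 and cup, of which Pdcd4 had a peak in replicate 1 alone (85.9). Of 10 elongation and termination genes, 7 had a pooled peak (70%, against 37.3% of all genes). In replicate 1, 7 had one (70% against 39.6%), and in replicate 2, 4 did (40% against 20.6%). The median pooled signal of these genes was 136. They were led by eEF2 (1140), eRF1 (958), eEF1gamma (865) and eEF5 (136), and eEF1beta and eEFSec had no peak in these lists. eEF1delta had one in replicate 1 alone (74.6).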

How the data were processed

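ChIP-seq peak lists of 2 biological replicates were used as deposited. Per the deposited text files, the authors aligned reads to dm6 and thresholded peaks by IDR, for replicates singly and pooled. Which aligner and peak caller they ran is not stated in the labels or files. Signal values are the peak caller's own, as deposited by the authors, on a scale set in each list, and are not compared between lists as changes. The deposited lists give q values as −log10, and the ranked lists give global IDR as −log10. Per-input columns of the ranked lists (8 in each) have no names and were not used, nor was 1 further ranked list.

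From these, with Python 3.11.15, summits on arms 2L, 2R, 3L, 3R, 4 and X were joined to TSSs of all transcripts (Ensembl release 115). Of the annotated start codons, 99.8% read ATG in the RefSeq Release 6 genome. A gene took its strongest summit within 500 bp. Protein lengths and identities come from the longest translated coding sequence (biopython 1.88, global alignment). The calls and motif counts were checked on simulated data. The members' rule uses names only, but the gene family and the lists were chosen with earlier results of these data known. Values in the pooled and replicate lists are given for the 12 strongest members, all genes of the paralog groups and members without a pooled peak, and the rest in part. The labels' 2 samples share 1 group, so no test was made. Other distances, TSS choices, thresholds, motif windows and single replicates were tried. The pooled list is the authors' own pooling and is not independent of the replicates. The listed name Tor was matched through an older symbol to mTor.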

Additional observations from a re-analysis of the deposited data

Results flagged for a closer look

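The regions at eIF4A and eIF4EHP lie outside the thresholded lists that the counts use, and the ranked lists hold them at a global IDR of 0.01 or less. eIF4A had a signal of 743 in pooled reads, 437 in replicate 1 and 312 in replicate 2. eIF4EHP had 75.9 in pooled reads and 61.6 in replicate 1, at a region shared with CG18428. In the pooled ranked list, 197 regions on the main arms were at or below that IDR and missing from the thresholded list of 5823 peaks on these arms, so both are among a small set left out. Why these regions are missing was not tested.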

How the results depend on the processing

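The count of 27 eIF genes with a promoter peak in the pooled list ranged from 20 (only the nearest TSS, 45.5% against 29.2% of all genes, or only peaks above the median signal, 45.5% against 23.7%) to 29 (65.9% against 38.1%, ranked list at a global IDR of 0.01 or less, chosen after seeing the data, which adds eIF4A and eIF4EHP). Leaving out a replicate, which means reading the other replicate's own list, gave 22 to 27 (50% against 20.6%, and 61.4% against 39.6%). With the nearest TSS only, the pooled peaks of eIF2Balpha, eIF2Bdelta, eIF2Bepsilon, eIF3a, eIF3h, eIF4E6 and eIF5 were lost, since another gene is nearer, and the count in both replicate lists was 13 (29.5% against 13.2%). Above the median signal of a list, replicate 2 gave 12 (27.3% against 11.8%) and both lists 12 (27.3% against 11.5%). The median signal of the pooled peaks ran from 289 to 354. CGATAG was in 29.6% of windows of 25 bp to each side and 51.9% of 100 bp, TATCGATA in 22.2% at 25 bp, GGTCACACT in 3.70% at 25 bp, and E-boxes in 14.8% and 70.4%, since longer windows hold more matches. At these window sizes the shares over all promoter peaks were not computed, so the gap to them is not known. With 1 replicate left out, the shares ran from 40.7% to 50% for CGATAG, 37.0% to 50% for TATCGATA, 4.55% to 11.1% for GGTCACACT and 40.9% to 44.4% for E-boxes. Over all promoter peaks they were 29.0% and 45.6% for CGATAG, 15.6% and 24.7% for TATCGATA, 3.93% and 4.91% for GGTCACACT, and 38.8% and 36.5% for E-boxes, in replicates 1 and 2, so the GGTCACACT gap was not seen in replicate 2. With other distances, the conservative list or 1 replicate left out, the paralog groups together had 5 to 6 genes with a peak. eIF3d had 0 in the conservative list and 0 to 1 with 1 replicate left out. eIF3f, eIF4G and eIF4H had 1 each, eIF4E 2 and eIF3g 0 under these settings. Other settings did change the groups. In the pooled list, the nearest TSS lost eIF4E6, and peaks above the median signal lost eIF3d1. The pooled ranked list at a global IDR of 0.01 or less added eIF4EHP. Depth is unknown, so a missing peak is not shown to be absent binding, and of the 6 members with a replicate 1 peak that replicate 2 lacked, eIF5 had 294 in replicate 1 and the others at most 61.0.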
